A study of Drosophila melanogaster with 15 samples.

Results

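The effect of Drosophila Yki S168A on the transcriptome of the larval eye was measured against a control that expressed eGFP alone. Yki is the transcriptional coactivator of the fly Hippo pathway, and the eye imaginal disc is the larval epithelium that becomes the adult eye. The comparison takes 6 of the 15 RNA sequencing libraries of the study, chosen by genotype, with 3 libraries of Yki S168A and 3 of the control. The study compared Yap and Yki proteins of several species in this tissue, and each library pooled polyadenylated RNA of 25 to 30 third-instar discs whose GFP-positive domain had been cut out.

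The control genotype was GMR-Gal4; UAS-eGFP, and the Yki genotype added UAS-DrosophilaYKI S168A, so that the driver and the eGFP transgene were common to all 6 libraries. GMR-Gal4 is active behind the morphogenetic furrow, the front of differentiation that crosses the disc, and in the cells there the construct was added to the endogenous yki gene. The phenotypes on record are normal eyes for the control, and differentiation defects with ectopic proliferation of a middle degree for Yki S168A. For a second comparison served 3 libraries each of Trichoplax Yap S81A (UAS-TrichoplaxYAP S81A) and Monosiga Yap-TBD (UAS-MonosigaYAP+HumanTBD), in the same driver and eGFP background and with strong ectopic proliferation on record. The last group of the series, Monosiga Yap without the added domain, entered the model only through the estimate of spread. RNA was extracted in triplicate for each genotype. Nothing states that the 3 extractions came from separate crosses, so p-values measure the spread between these samples, which may be technical.

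In the Hippo pathway, the kinase Warts, which acts below the kinase Hippo, phosphorylates Yki and keeps it out of the nucleus. The serine replaced in S168A is a main site of that control, so this form largely escapes it. Nuclear Yki binds Scalloped, the fly TEAD protein, and turns on genes of growth, cell cycle entry and survival. Several upstream pathway genes are themselves Yki targets, which gives the pathway a negative feedback. Behind the furrow most cells of the normal disc have left the cell cycle, apart from a synchronous second mitotic wave, and are recruited in steps into photoreceptors, cone cells and pigment cells.

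Depth, estimated from the steps between low values, was 14, 15.8 and 14.1 M fragments for control replicates 1 to 3 and 14, 15.3 and 20.7 M fragments for Yki S168A replicates 1 to 3. At the lowest of these, a value of 1 FPKM (fragments scaled by transcript length and by library size) equals some 28.0 fragments for a transcript 2000 bases long. Log-scale correlations within groups were 0.959 to 0.963 in the control and 0.946 to 0.961 with Yki S168A. The identity markers of the differentiating eye disc were detected in all 6 libraries: so and eya, retinal determination genes, at no less than 75.3 and 93.6 FPKM, the neuronal gene elav at no less than 19.9, and gl, ato and sev at no less than 52.3, 9.4 and 12.9 FPKM. Among the genes given with values, so, elav, ex, CG4290, Mcm3, Ts, Rbp9, Mcm10, Ret, fzy, CycA, boi, ru, hbs, dan, Traf4, cher, Obp44a, BthD, mp and Chit overlap a gene on the other strand, sd, dally, hh and svp overlap one on the same strand and Adgf-A overlaps both kinds. 

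In all, 9213 genes were tested with limma on log2(FPKM + 1), and a gene was called where the limma p, adjusted by Benjamini-Hochberg over these genes, was under 0.05. Of them 499 (5.42%) were called higher and 601 (6.52%) lower with Yki S168A, together 1100 (11.9%), and 2360 had an unadjusted limma p under 0.05. The calls were uneven in size: 374 genes (4.06%) fell at least 2-fold in mean FPKM, but only 146 (1.58%) rose that much. The median log2 fold change over all genes tested was 0.00063. Counts of calls in the gene lists below stand beside these shares of 5.42% higher and 6.52% lower. Without any 1 of the 6 libraries, 723 to 831 genes were called in all, the fewest without control replicate 2. The higher calls then numbered 312 to 373. They were 330, 325, 318 and 312 without Yki S168A replicate 1, Yki S168A replicate 3, control replicate 1 and control replicate 2. Of the 1100 calls, 564 held without each of the 6 libraries in turn. Fold values below are ratios of mean FPKM, and log2 fold changes are differences of log2(FPKM + 1), which understate the change of low genes.

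The yki gene itself (FBgn0034970; 2R 19953498 to 19956008, dm3, minus strand) stood at 86.2, 89 and 80.0 FPKM in control replicates 1, 2 and 3, and at 696, 706 and 408 FPKM in Yki S168A replicates 1, 2 and 3. Every Yki S168A library lay far above the control libraries, and replicate 3 was the lowest of the 3. The rise was 7.09-fold (log2 fold change 2.77, SE 0.17, limma adjusted p = 3.33e-07). Fragments of the transgene and of the endogenous gene cannot be told apart, so this level is their sum.

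Genes that are known Yki targets rose in most cases. Of 15 such genes, all tested, 10 were called higher and 0 lower, and their median log2 fold change was 0.91, beside 5.42% called higher and a median of 0.00063 over all genes. All 3 Yki S168A libraries exceeded all 3 controls in 12 of the 15, where 16.6% of all genes did so. The list was drawn up with earlier results on these samples known, so its count is not independent evidence of a direction. Leaving out single libraries gave 9 or 10 higher calls.

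The upstream scaffold gene expanded (ex; FBgn0004583; 2L 431253 to 448701, plus strand), a classic readout of Yki activity, stood at 57, 53.6 and 53.1 FPKM in the 3 controls and 339, 269 and 268 FPKM in the 3 Yki S168A libraries. Its groups were well apart, with a 5.35-fold rise (log2 fold change 2.39, SE 0.15, limma adjusted p = 3.33e-07). The gene kibra (listed as CG33967), whose product acts with Expanded and Merlin above the kinases, went from 20.5, 21.4 and 22.6 to 82.1, 70.9 and 60.3 FPKM. No library of one group reached the other, and the rise was 3.31-fold (limma adjusted p = 6.16e-05). The kinase gene warts (wts), which restrains Yki directly, went from 17.1, 17.7 and 18.6 to 48.3, 43.5 and 36.9 FPKM, again with no overlap (2.41-fold, limma adjusted p = 0.000126). For kibra and wts, the Yki library with the lowest yki level was also the lowest of its group, and for ex it was within 1 FPKM of replicate 2. For the targets CycE and wg, given below, that library was instead the highest of its group.

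Over the whole pathway, genes moved both ways. Of 33 Hippo pathway components, 9 were called higher and 4 lower, with a median log2 fold change of 0.11. Beside ex, kibra, wts and yki, the higher genes include the atypical cadherin genes fat (ft; 23.9 ± 1.22 to 42.8 ± 3.54 FPKM, SD, n = 3, limma adjusted p = 0.000549) and dachsous (ds; 42.6 ± 3.22 to 85.1 ± 10.4 FPKM, limma adjusted p = 0.000887), a ligand and receptor pair of planar polarity and growth control. The core genes hpo, sav and mats stood at 51.9, 23.6 and 71.5 FPKM in the control and at 44.4, 21.3 and 56.2 FPKM with Yki S168A (limma adjusted p = 0.282, 0.634 and 0.177). The TEAD gene sd, the DNA-binding partner of Yki, was at 78.3 and 97.5 FPKM (limma adjusted p = 0.111). Of the lower genes, CG5375, known as Schip1, fell from 25.1, 22 and 29.4 to 13, 14.8 and 12.4 FPKM and CG4290, known as Sik2, from 11.5, 12 and 13.8 to 5.52, 6.56 and 4.46 FPKM (limma adjusted p = 0.00322 and 0.00358). The count of 4 lower genes was 2 without Yki S168A replicate 1, control replicate 1 or control replicate 2.

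**Figure D1:**
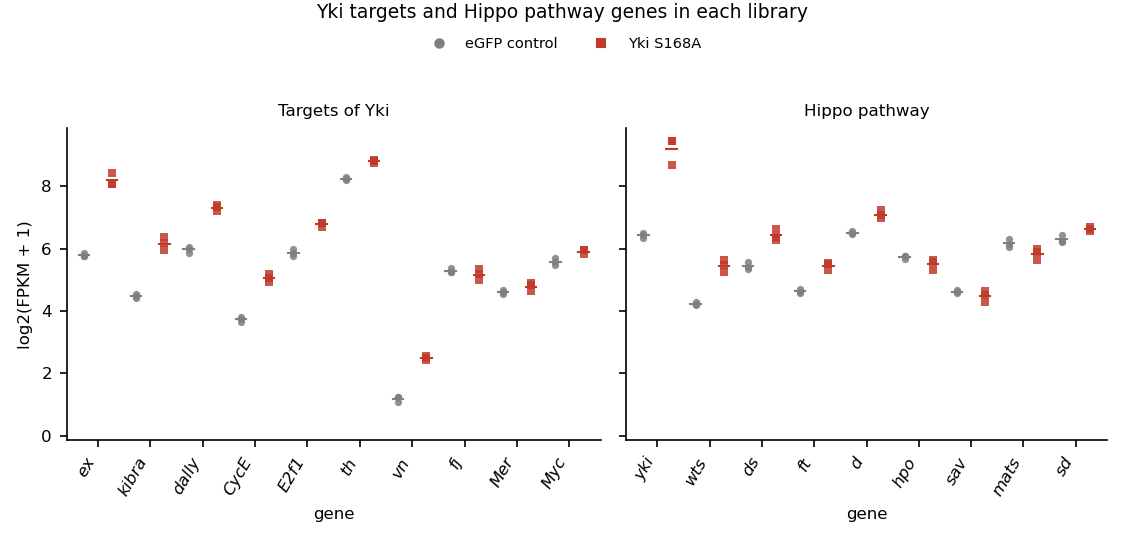
Levels on the log2(FPKM + 1) scale of yki, Hippo pathway genes and Yki targets in each library, with circles for the eGFP control, squares for Yki S168A and a line at each group mean. The 3 Yki S168A libraries lie above all controls for ex, kibra and wts, while hpo, sav and mats lie close to the control level.

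Further targets cover survival, adhesion and ligands. The caspase inhibitor gene th, known as Diap1, a survival target of Yki, went from 296, 310.4 and 299 to 459.8, 424 and 447 FPKM. The change was small but clear of the spread (1.47-fold, log2 fold change 0.56, SE 0.08, limma adjusted p = 0.000354). The glypican gene dally, whose product shapes the gradients of secreted ligands, went from 62.8, 57.6 and 65.4 to 167, 161 and 145 FPKM (2.55-fold, limma adjusted p = 9.13e-05). The gene vein (vn), a ligand of the EGF receptor, went from 1.34, 1.1 and 1.38 to 4.57, 4.88 and 4.4 FPKM, without overlap (3.63-fold, limma adjusted p = 0.00147), and the Notch ligand gene Serrate (Ser) from 3.31, 4.52 and 2.36 to 8.91, 9.61 and 8.85 FPKM (2.68-fold, limma adjusted p = 0.00255). Not every listed target passed the test. The Golgi kinase gene four-jointed (fj) was at 36.8, 37.1 and 40.9 FPKM in the controls and 39.3, 30.7 and 35.3 FPKM with Yki S168A, where the groups overlap (limma adjusted p = 0.577). Mer was at 23.3 and 26.6 FPKM, the Myc gene (listed as dm) at 47 and 58.9 FPKM, and the glypican gene dlp at 38.2 and 53.7 FPKM (limma adjusted p = 0.319, 0.138 and 0.0752).

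Cyclin E and E2f1, the cyclin and the transcription factor that start S phase, both rose. CycE went from 12.9, 11.4 and 12.5 to 29.4, 32.1 and 35.5 FPKM (2.64-fold, limma adjusted p = 0.000416), and E2f1 (listed as E2f) from 57.1, 53.2 and 62 to 113, 112 and 102 FPKM (1.9-fold, limma adjusted p = 0.00191). In both genes the Yki S168A libraries were all above the controls.

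Of 51 genes of DNA replication and the G1/S transition, 33 were called higher and 0 lower, with a median log2 fold change of 0.76, and single libraries left out gave 27 to 30 higher calls. The PCNA gene (listed as mus209), the sliding clamp of the replication fork, went from 134, 141 and 125 to 313, 293 and 305 FPKM. Its libraries were tight in both groups and did not overlap (2.28-fold, log2 fold change 1.18, SE 0.12, limma adjusted p = 4.7e-05). The helicase subunit gene Mcm5 went from 26.7, 28.2 and 28 to 61.4, 54.4 and 57.5 FPKM and Mcm7 from 48.7, 56.8 and 50.4 to 126, 96.9 and 98.6 FPKM (limma adjusted p = 0.000106 and 0.000266). The other subunits of that helicase, Mcm2, Mcm3, Mcm6 and dpa, singled out after their values were seen, were also all called, at 1.88-, 1.85-, 1.93- and 1.79-fold. The ribonucleotide reductase gene RnrL, which supplies deoxynucleotides, rose 2.24-fold (limma adjusted p = 0.000152). Several regulators of cell cycle entry and exit on the list were not called. CycD and Cdk4 were at 1.03 and 0.992 times the control level, the CDK inhibitor gene dap at 1.11 times, and geminin at 1.21 times (limma adjusted p = 0.934, 0.981, 0.602 and 0.448).

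A pair of replication genes had very large changes that need care. The thymidylate synthase gene Ts (2L 2968293 to 2969620) was listed at 0.155, 0.0679 and 0.0383 FPKM in the controls and 33, 28.2 and 37.8 FPKM with Yki S168A (limma adjusted p = 4.03e-08). It overlaps Rbp9, a neuronal RNA-binding protein gene on the other strand, which fell from 15.2, 12.8 and 17.6 to 3.31, 5.18 and 3.62 FPKM (limma adjusted p = 0.000152). The replication gene Mcm10 was listed at 0.0637, 0.516 and 0.0189 and 9.24, 11.2 and 11.4 FPKM (limma adjusted p = 0.000416). Mcm10 overlaps the receptor tyrosine kinase gene Ret, which fell from 4.13, 2.98 and 3.75 to 0.269, 0.296 and 0.363 FPKM (limma adjusted p = 0.00132). In both pairs one partner rose and the other fell. Whether strand was used in the authors' counting is not given in the sources used here, so the fragments of such partners cannot be told apart. In the authors' deposited table the log ratio is 0 for Ts, Mcm10 and Rbp9, as it is for 25 of the 1100 called genes in all, hth and Chit among them.

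Some genes of mitosis rose too. Of 56 genes of mitosis, spindle and cytokinesis, 20 were called higher and 0 lower, with a median log2 fold change of 0.42. The count was 13 without control replicate 1 and 12 without control replicate 2, and 11 of the 20 held without each library in turn. The aurora B kinase gene (listed as ial) went from 32.8, 30.2 and 32.9 to 77.4, 64.6 and 59.1 FPKM, the kinesin gene pav of cytokinesis from 27.1, 21.7 and 27.2 to 59.4, 48.7 and 47.1 FPKM, and the anaphase activator gene fzy from 31.7, 28.1 and 30.6 to 62.1, 55.6 and 59.4 FPKM. Each of these was without overlap and close to 2-fold, at 2.1-, 2.04- and 1.96-fold (limma adjusted p = 0.00126, 0.000808 and 0.00112). The mitotic cyclin genes CycA and CycB stood at 1.25 and 1.46 times the control (limma adjusted p = 0.203 and 0.0615). The gene string (stg), the phosphatase that triggers mitosis, stood at 92.7, 80.7 and 89.6 FPKM in the controls and at 67.9, 60.7 and 77.8 FPKM with Yki S168A. All 3 Yki values of stg lay below the controls without passing the test (limma adjusted p = 0.14).

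Lists of cell growth were read beside the 5.42% of all genes called higher. Of 24 ribosome biogenesis genes 2 were called higher and 0 lower, and 23 had a log2 fold change above 0 (median 0.46). Neither call held without each library in turn, and the count of 2 was 0 without Yki S168A replicate 1 or control replicate 2, 1 without Yki S168A replicate 2 and 3 without control replicate 3. Of 84 cytosolic ribosomal protein genes 0 were called higher and 2 lower (median -0.22), and of 71 mitochondrial ribosomal protein genes 0 were called in either direction (median 0.17). Of 21 Myc, insulin and TOR growth genes 3 were called higher and 0 lower (median 0.14). The insulin receptor gene InR and its transcription factor gene foxo rose 1.87- and 1.91-fold (limma adjusted p = 0.00771 and 0.00305).

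Several secreted ligand genes rose. The Wnt gene wingless (wg; FBgn0004009; 2L 7307161 to 7316255, dm3), which normally marks the disc margin and blocks furrow initiation there, stood at 4.63, 4.82 and 2.3 FPKM in the controls and at 67.5, 39.5 and 93.3 FPKM in Yki S168A replicates 1, 2 and 3. All Yki libraries were far above the controls, but they differed among themselves by more than 2-fold, with replicate 2 the lowest. The mean rose 17-fold (log2 fold change 3.75, SE 0.36, limma adjusted p = 4.2e-05). Its neighbours Wnt6 and Wnt10 lie at 2L 7340437 to 7352280 and 2L 7369540 to 7377530. Wnt6 went from 11.6, 13.6 and 5.99 to 19.9, 17.5 and 32.2 FPKM (2.23-fold, limma adjusted p = 0.0194). This call was lost without Yki S168A replicate 3 (adjusted p = 0.0911), without control replicate 3 (adjusted p = 0.0823) and with only the compared groups in the fit (adjusted p = 0.0641). Wnt10, hardly detected in the controls at 0.141, 0.125 and 0 FPKM, reached 1.08, 1.86 and 0.924 FPKM (limma adjusted p = 0.0043). It passed the filter on low values only through libraries of Yki S168A and Trichoplax Yap S81A, where it was high. Across these genes, control replicate 3 was the lowest control each time. Wnt2, which lies elsewhere, fell from 10.7, 9.0 and 8.05 to 4.15, 3.16 and 3.49 FPKM (limma adjusted p = 0.01), and Wnt5 was at 44.1 and 47.3 FPKM (limma adjusted p = 0.738).

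Genes that Wg signalling is known to induce moved in part. Notum, which encodes a secreted Wnt deacylase and feedback inhibitor, went from 3.56, 4.11 and 5.43 to 37.4, 22.1 and 23.9 FPKM, without overlap (6.37-fold, limma adjusted p = 0.00152). The feedback gene naked cuticle (nkd) went from 46.1, 33.2 and 44.9 to 84.5, 80.2 and 76.8 FPKM (1.95-fold, limma adjusted p = 0.00441). The receptor gene fz3, another Wg target, was at 32.4, 31.9 and 28.5 FPKM and 36.8, 36.8 and 44.7 FPKM and did not pass (limma adjusted p = 0.304). Over the list of 23 tested Wg receptors, transducers and feedback targets, 3 were called higher and 0 lower, with a median log2 fold change of 0.21.

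The BMP ligand gene decapentaplegic (dpp), expressed at the furrow and needed for its start, went from 7.23, 7.05 and 5.59 to 24.6, 16.9 and 22.8 FPKM. Its groups were apart, at 3.24-fold (limma adjusted p = 4.25e-05). The gene hedgehog (hh), secreted by differentiating photoreceptors to drive the furrow, went from 17, 19.6 and 28.8 to 45.1, 39.2 and 45 FPKM (1.98-fold, limma adjusted p = 0.00467), while its receptor gene ptc, a general target of the pathway, was at 34.1, 24 and 36.3 FPKM and 51.4, 41.7 and 38.4 FPKM (limma adjusted p = 0.219). The co-receptor gene boi rose 1.78-fold (limma adjusted p = 0.000773). Other ligands were not called, among them the main EGF ligand gene spi at 302 and 283 FPKM and the Notch ligand gene Dl at 36.6 and 38.6 FPKM (limma adjusted p = 0.755 and 0.764).

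Among the largest rises were Dll and lbl, homeobox genes foreign to the posterior eye. Distal-less (Dll), the selector of limb and antenna, was almost silent in the controls at 0.374, 0.282 and 0.53 FPKM and reached 8.56, 5.07 and 9.47 FPKM. The rise was 19.5-fold, with no overlap (log2 fold change 2.61, SE 0.30, limma adjusted p = 9.74e-05). The gene lbl, a ladybird homeobox gene known from heart and muscle, was listed at 0.045, 0.157 and 0.177 FPKM and then 8.16, 2.84 and 7.31 FPKM (limma adjusted p = 0.000138). For wg, Notum, Dll and lbl alike, Yki S168A replicate 2 was the lowest Yki library. Homothorax (hth), which keeps eye progenitors undifferentiated ahead of the furrow, went from 103, 97.8 and 117 to 265, 201 and 262 FPKM (2.29-fold, limma adjusted p = 0.00161), and its partner teashirt (tsh) was at 38.7, 40.1 and 28.4 FPKM and 29.1, 28.8 and 32.8 FPKM (limma adjusted p = 0.561). B-H1, a homeobox gene of photoreceptors R1 and R6, rose 2.14-fold (limma adjusted p = 0.000871). Of 20 appendage and Hox homeobox genes, 10 reached the filter on low values, and Dll and lbl were the 2 called. Both reached it only through libraries of Yki S168A and Trichoplax Yap S81A. They were tested only because they were high there, so this count is no independent result. Among 13 antennal and peripodial markers, 9 were tested, with a median log2 fold change of -0.47 and 2 of the 9 above 0. Dll and hth were the 2 called higher there, and salm, ct and dan, given below, were the 3 called lower.

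**Figure D2:**
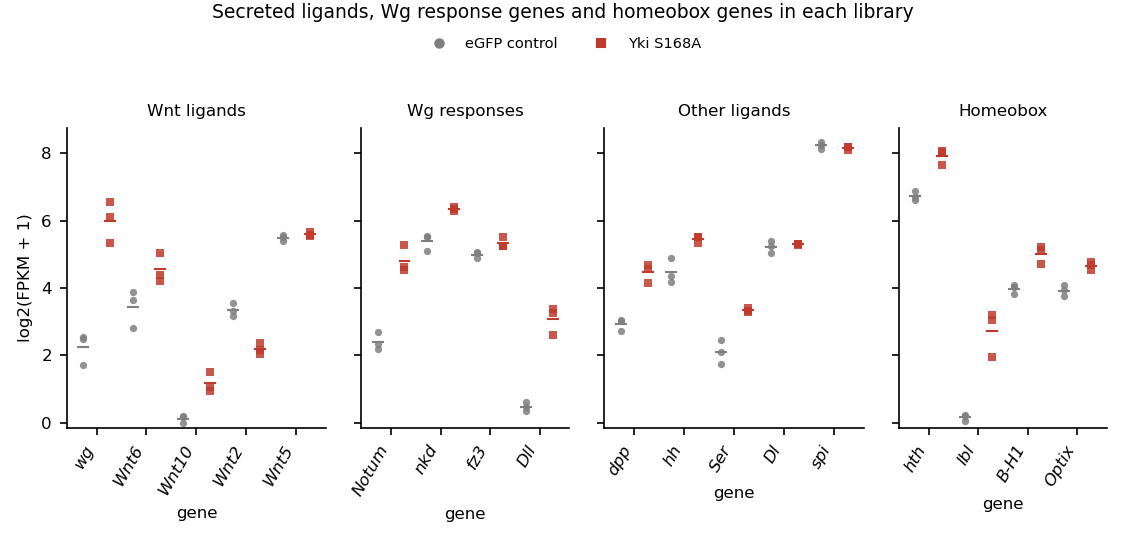
Levels on the log2(FPKM + 1) scale of Wnt ligands, Wg response genes, other ligands and homeobox genes in each library, with circles for the eGFP control, squares for Yki S168A and a line at each group mean. The wg, Notum and Dll values with Yki S168A lie above every control and spread more than those of dpp or hh.

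Several genes of retinal differentiation fell. The receptor tyrosine kinase gene sevenless (sev; FBgn0003366; X 10965474 to 10980332), which the R7 photoreceptor needs, stood at 128, 101 and 116 FPKM in the controls and at 12.9, 16.9 and 13.8 FPKM with Yki S168A. The groups lay 7.91-fold apart (log2 fold change -2.90, SE 0.22, limma adjusted p = 2.8e-06). In tissue pools of this kind, fewer cells of a type and less RNA per cell cannot be told apart. Of 9 genes of the Sevenless pathway, 4 were called lower and 0 higher, with a median log2 fold change of -0.99. Over all genes tested, 6.52% were called lower and 5.42% higher. Besides sev they were phyl, an adaptor induced by the pathway, from 20.8, 27.2 and 32.5 to 10.4, 12.4 and 9.77 FPKM, the ligand gene boss from 7.39, 7.1 and 11.3 to 4.53, 4.32 and 2.62 FPKM and the Runx gene run from 5.9, 7.39 and 6.43 to 1.45, 2.39 and 1.76 FPKM (limma adjusted p = 0.000871, 0.0097 and 0.00102). The R7 selector pros was at 5.22, 4.91 and 6.25 FPKM and 4.7, 1.92 and 0.825 FPKM, and all its Yki values were below the controls without a call (limma adjusted p = 0.129).

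Several transcription factors that give photoreceptors and cone cells their subtype fell. Of 21 such genes, 9 were called lower and 1 higher (median log2 fold change -0.67), beside 6.52% and 5.42% of all genes. Leaving out single libraries gave 6 to 9 lower calls, and it gave 6 without control replicate 3. The cone cell Pax2 gene (listed as sv) went from 14, 18.6 and 14.2 to 1.08, 1.36 and 1.53 FPKM, a fall of 11.8-fold with no overlap (log2 fold change -2.83, SE 0.19, limma adjusted p = 7.7e-07). The zinc finger genes spalt major (salm) and spalt related (salr), which specify R3, R4, R7 and R8 traits, went from 12.2, 9.1 and 16.1 to 1.73, 1.81 and 1.94 FPKM and from 29.4, 21.8 and 31.5 to 4.86, 5.81 and 5.04 FPKM (limma adjusted p = 4.66e-05 and 4.66e-05). Both fell in every Yki library to well under the lowest control. The nuclear receptor gene seven-up (svp) of R1, R3, R4 and R6 fell 3.29-fold (limma adjusted p = 0.000254).

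Upstream of these, some genes of signals and proneural factors fell too. The EGF and Notch counts below stand beside 6.52% of all genes called lower and 5.42% higher. The intramembrane protease genes rhomboid (rho) and roughoid (ru), which release EGF ligands, went from 38.1, 31.9 and 53 to 13.7, 16.8 and 12.4 FPKM and from 140, 113 and 170.4 to 38.8, 53.3 and 39.3 FPKM (limma adjusted p = 0.000257 and 0.00028). The ETS factor gene pointed (pnt), the nuclear effector of EGF signalling, fell 2.24-fold (limma adjusted p = 0.00234). Of 24 EGF receptor pathway genes, 2 were called higher and 6 lower, and the higher count was 1 without Yki S168A replicate 1, Yki S168A replicate 2, control replicate 1, control replicate 2 or control replicate 3. Egfr, 1 of the 2, lost its call without any 1 of the 6 libraries (adjusted p = 0.0505 to 0.119). The proneural gene atonal (ato), which selects the founder photoreceptor R8, went from 32.5, 22.6 and 20.1 to 9.4, 9.79 and 10.2 FPKM (2.56-fold lower, limma adjusted p = 0.00847). Its control values were scattered and its Yki values tight, and the groups did not overlap. The Notch target genes HLHmdelta and HLHmgamma of the Enhancer of split complex fell 3.14- and 3.55-fold (limma adjusted p = 0.000815 and 0.00333). Of 24 Notch pathway genes, 4 were called lower and 1 higher, namely Ser, and 8 were called lower with only the compared groups in the fit.

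Some genes of maturing neurons fell as well. Of 44 neuronal and synaptic genes, 38 reached the filter, 11 were called lower and 1 higher (median log2 fold change -0.35). Beside this, 6.52% of all genes were called lower and 5.42% higher. The higher calls numbered 2 without control replicate 3, and the lower calls 7 without Yki S168A replicate 3 or without control replicate 3. The pan-neuronal gene elav went from 47.3, 41.8 and 58.6 to 19.9, 29.4 and 23.6 FPKM (2.02-fold lower, limma adjusted p = 0.00262), the amyloid precursor gene Appl from 163, 124 and 201 to 54.7, 87 and 64.5 FPKM and the N-cadherin gene CadN from 28.5, 23.3 and 41.5 to 11.9, 16.9 and 11.5 FPKM (limma adjusted p = 0.00221 and 0.00368). In all 3 of these genes control replicate 3 was the highest library. The axon guidance receptor gene lea, known as robo2, was the 1 that rose, from 9.36, 10.2 and 9.27 to 35.2, 25.4 and 23.2 FPKM (limma adjusted p = 0.000558). Markers of other cell types were read beside these counts. The summed level of 15 glia markers was 678 to 817 FPKM in the controls and 721 to 779 FPKM with Yki S168A, with 0 of the 15 called higher and 4 lower, and with 1 lower without Yki S168A replicate 3 or without control replicate 3. The sum of optic lobe and brain markers, of which 8 of 17 were tested and 0 called (1 lower without control replicate 1), was 51.7 to 67.7 FPKM against 39.6 to 49.9 FPKM. The part of these cells in the neuronal result was not tested.

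Of 36 phototransduction genes, most of which belong to a later stage, 21 reached the filter, with 2 called higher and 2 lower. The higher count was 1 without control replicate 3. The eye protein kinase C gene inaC fell from 41.9, 39.9 and 49.1 to 17.6, 19.1 and 12.7 FPKM (limma adjusted p = 0.000123). The myosin kinase gene ninaC rose from 0.195, 0.289 and 0.152 to 2.31, 1.58 and 1.25 FPKM (limma adjusted p = 0.00328). It, too, passed the filter only through libraries of Yki S168A and Trichoplax Yap S81A, where it was high. On the chromosome ninaC lies at 2L 7377718 to 7384344, just past Wnt10, which ends at 7377530 and also rose. Whether these rises are linked was not tested. The photoreceptor adhesion gene chp was at 36, 31.5 and 41.7 FPKM and 22.9, 27.3 and 25 FPKM (limma adjusted p = 0.136). Of 16 tested cone and pigment cell genes, 3 were called lower and 1 higher, beside 6.52% and 5.42% of all genes. The higher calls numbered 2 without Yki S168A replicate 3 or control replicate 3. Besides sv, the lower ones were the nephrin-like gene hibris (hbs), from 61.1, 51.9 and 68.5 to 26.7, 26.2 and 23.7 FPKM, and the homeobox gene cut (ct), from 4.09, 4.14 and 5.39 to 1.42, 1.27 and 2.2 FPKM (limma adjusted p = 5.45e-05 and 0.00847).

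The genes that make the disc an eye in the first place were mostly not called. Of 14 retinal determination and progenitor genes, 2 were called higher and 1 lower (median log2 fold change -0.12), beside 5.42% and 6.52% of all genes. The higher count was 1 without Yki S168A replicate 2 or control replicate 3, since Optix lost its call there (adjusted p = 0.0588 and 0.0654). The levels of eya were 153, 133 and 179 FPKM in the controls and 144, 117 and 93.6 FPKM with Yki S168A, those of so 92.7, 91 and 111 and 109.8, 101 and 75.3 FPKM, and those of ey 54.6, 54.2 and 60.8 and 68.5, 56.9 and 54.1 FPKM. In each the groups overlapped (limma adjusted p = 0.145, 0.893 and 0.832). The gene dac was at 49.8 and 39.6 FPKM (limma adjusted p = 0.447). The lower call was dan, a nuclear factor that acts with ato, from 47.2, 42.8 and 49.7 to 29, 30.7 and 27.8 FPKM (limma adjusted p = 0.00617).

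**Figure D3:**
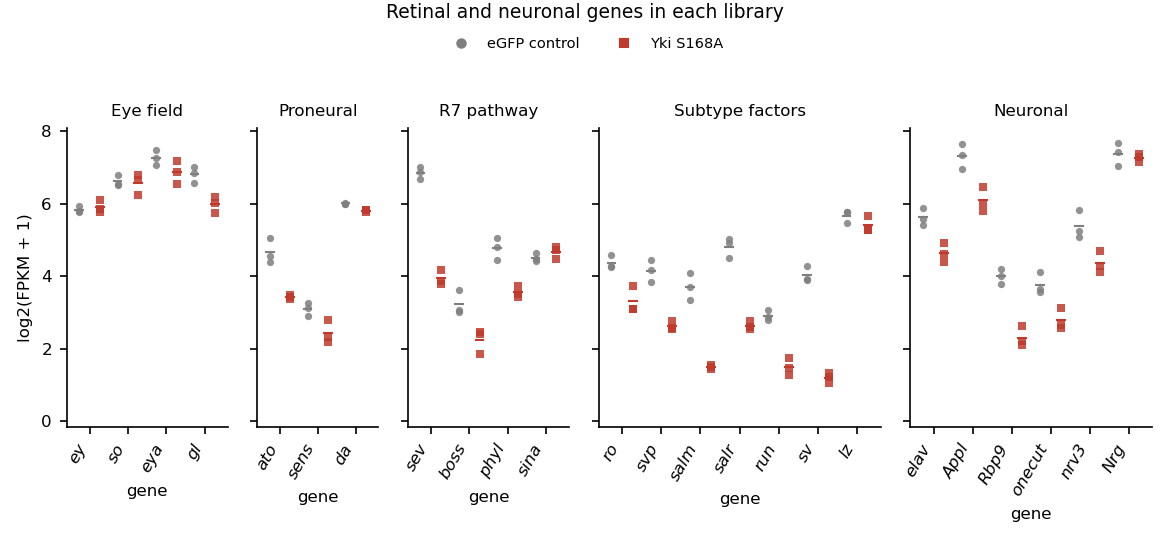
Levels on the log2(FPKM + 1) scale of genes of retinal differentiation and retinal determination in each library, with circles for the eGFP control, squares for Yki S168A and a line at each group mean. The sev, sv, salm and salr values with Yki S168A lie well below every control, while the groups overlap for eya, so and ey.

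**Figure D4:**
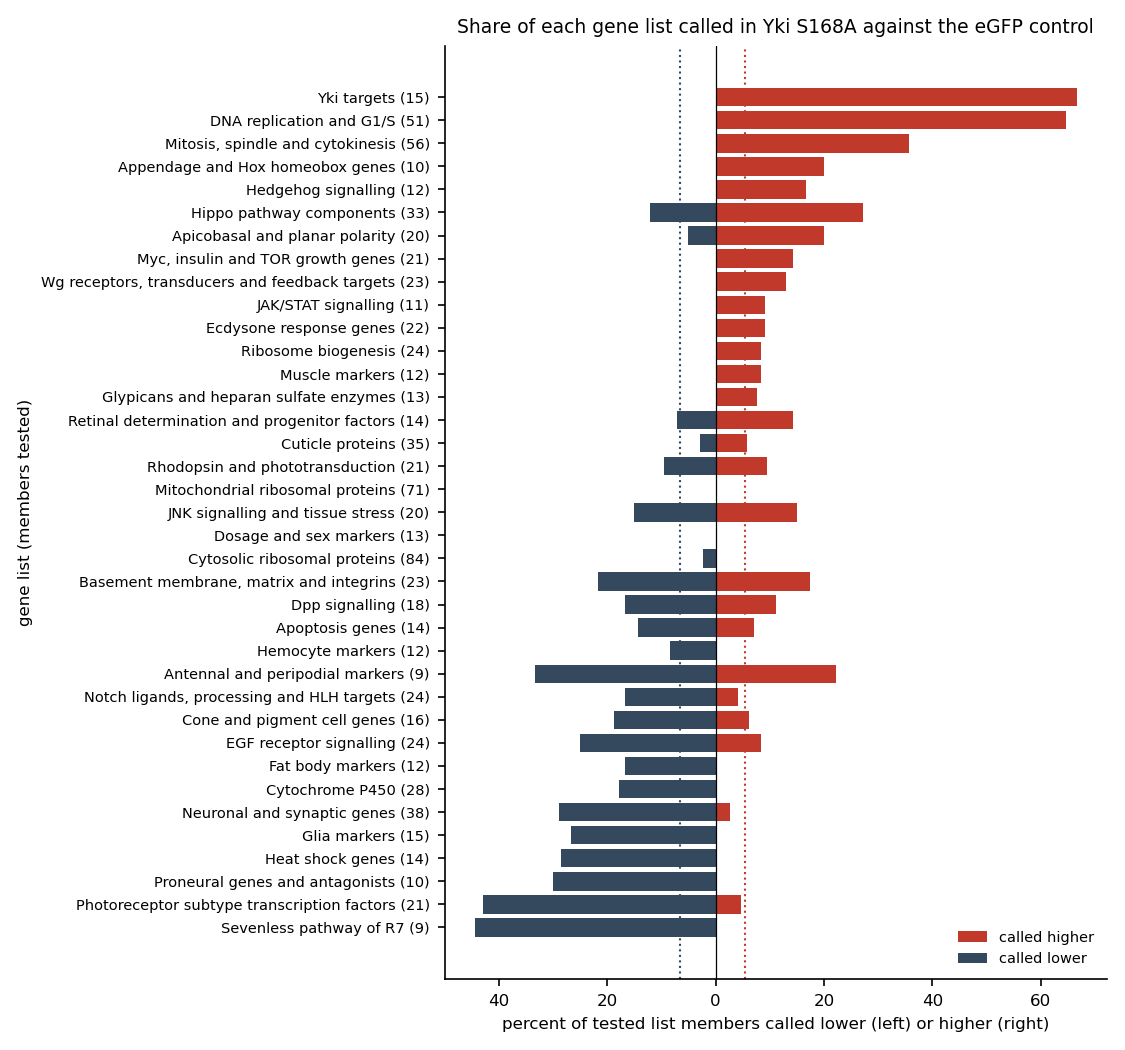
Share of tested members called higher (right) and lower (left) with Yki S168A by limma in each gene list with at least 9 tested members, with dotted lines at 5.42% and 6.52%, the shares over all genes tested. DNA replication and Yki targets extend farthest to the right, and the Sevenless pathway and subtype transcription factors farthest to the left.

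Among genes of stress, death and matrix, calls went both ways, beside 5.42% of all genes called higher and 6.52% lower. The list of JNK signalling and tissue stress holds 20 tested genes, of which 3 were called higher and 3 lower, and among 14 apoptosis genes 1 was higher, th, and 2 were lower. The lower apoptosis count was 1 without Yki S168A replicate 2, Yki S168A replicate 3, control replicate 1 or control replicate 2. The higher JNK count was 1 without Yki S168A replicate 1, Yki S168A replicate 2 or control replicate 2. The TNF gene egr, a ligand that starts JNK signalling, went from 33.1, 31.5 and 32.4 to 15.2, 14 and 10.4 FPKM and its adaptor gene Traf4 from 50.7, 55.3 and 71.2 to 13.6, 17.7 and 11 FPKM, both lower (limma adjusted p = 0.000808 and 9.74e-05). The filamin gene cher, which encodes an actin crosslinker, rose from 28.4, 29.7 and 30.2 to 74.4, 58.8 and 60.1 FPKM (limma adjusted p = 0.000566). The matrix protease gene Mmp2 fell from 386, 395 and 549 to 178, 167 and 147 FPKM (limma adjusted p = 0.000624).

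Of 23 tested genes of basement membrane, matrix and integrins, 4 were called higher and 5 lower, with 3 to 4 of the lower calls left without single libraries; the count was 3 without Yki S168A replicate 2, Yki S168A replicate 3, control replicate 2 or control replicate 3. The gene BM-40-SPARC, which encodes a collagen-binding protein, went from 85.9, 80.6 and 88.2 to 29.4, 30.3 and 26.7 FPKM, and the perlecan gene trol from 29.9, 26 and 36.1 to 17.3, 18.2 and 14.3 FPKM (limma adjusted p = 0.000171 and 0.00659). The zona pellucida gene pio of the apical matrix and the papilin gene Ppn rose 1.93- and 1.94-fold (limma adjusted p = 0.00126 and 0.00333). Hemocytes and fat body also make basement membrane proteins. The summed level of 12 hemocyte markers was 90.1 to 144 FPKM in the controls and 54.8 to 67.6 FPKM with Yki S168A, with 1 of 12 called lower and a median log2 fold change of -0.81. This call was lost with any 1 of the 6 libraries left out. Of 14 fat body markers, 12 were tested and 2 called lower, with sums of 493 to 739 against 247 to 294 FPKM and a median log2 fold change of -0.11. Without Obp44a the sums were 150.2 to 169 and 150.7 to 193 FPKM, which overlap. The larger of the 2 called falls was that of Obp44a, an odorant-binding protein gene, from 447, 571 and 326 to 102, 106 and 79.2 FPKM (limma adjusted p = 0.000266). The count of 2 was 1 without Yki S168A replicate 2, Yki S168A replicate 3, control replicate 2 or control replicate 3. The part of these cells in the matrix result was not tested. Muscle markers, with 12 of 17 tested, had sums of 84.2 to 106 FPKM and 93.2 to 110.1 FPKM, but a median log2 fold change of -0.56 with 2 of 12 above 0. The 1 called member, how, an RNA-binding protein gene of muscle and other tissues, rose from 50.5, 46.6 and 41.5 to 72.9, 61 and 70.8 FPKM (limma adjusted p = 0.01), and without it the sums were 33.6 to 64.8 and 32.2 to 37.2 FPKM.

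Large changes were also called in single genes outside the pathways above. The cuticle protein gene TwdlE, of the Tweedle family, went from 54.4, 49.5 and 39.2 to 899, 494 and 822 FPKM (15.5-fold, log2 fold change 3.89, SE 0.31, limma adjusted p = 8.19e-06). It was 1 of 2 genes called higher of the 35 tested cuticle protein genes, of 122 in the list. The G protein-coupled receptor gene mthl8, of the Methuselah-like family (3L 22947 to 26316), was listed at 0 in all 3 controls and reached 5.94, 5.32 and 5.68 FPKM (limma adjusted p = 3.33e-07). It passed the filter on low values only through the 3 Yki S168A libraries, so it was tested only because it was high there. The selenoprotein gene BthD rose 4.18-fold and the hydrolase gene Reg-2 5.54-fold (limma adjusted p = 5.85e-06 and 0.00101). Of all genes tested, the lowest limma adjusted p, 1.66e-09, belonged to CG7900, chosen after its values were seen, which went from 0.596, 0.641 and 0.635 to 29.8, 23.2 and 24.4 FPKM with hardly any scatter within groups. Among the falls, Osi9, of the Osiris family of insect membrane proteins, went from 4.8, 4.74 and 7.16 to 0.741, 0.735 and 0.667 FPKM (limma adjusted p = 0.000279), and multiplexin (mp), a collagen gene, from 33, 29.4 and 41.8 to 7.06, 7.88 and 9.06 FPKM (limma adjusted p = 6.5e-05). The chitinase-like gene Chit and the adenosine deaminase-related gene Adgf-A fell 4.15- and 7.51-fold (limma adjusted p = 0.00121 and 0.0043). Genes with only a CG or CR number made up 185 of the 499 higher and 319 of the 601 lower calls. Their share among all genes tested was not counted, so these counts cannot be compared with it.

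The direct comparison of Yki S168A with the 2 other proliferating constructs tested it against the mean of Trichoplax Yap S81A and Monosiga Yap-TBD. Control libraries entered it only through the estimate of spread. Of the 9213 genes, 87 (0.944%) were called higher and 109 (1.18%) lower in Yki S168A, 196 (2.13%) in all. The count in all was 121 without Yki S168A replicate 1, 81 without Yki S168A replicate 2 and 114 without Monosiga Yap-TBD replicate 1. The higher calls were then 46, 27 and 52, and the lower calls were 54 without Yki S168A replicate 2 and 62 without Monosiga Yap-TBD replicate 1.

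Among the core target and replication genes, ex and PCNA were not called in this test. Expression of ex was 264, 228 and 319 FPKM with Trichoplax Yap S81A and 341, 269.6 and 316 FPKM with Monosiga Yap-TBD, against a mean of 292 FPKM with Yki S168A (log2 difference 0.02, SE 0.13, limma adjusted p = 0.975). PCNA (mus209) was at 343 and 326 FPKM in the other groups, against 303 FPKM (log2 difference -0.14, SE 0.11, limma adjusted p = 0.651). For wg, the mean of the 2 groups hides a wide gap between them, 107, 79.3 and 176 FPKM with Trichoplax Yap S81A and 11.2, 17.1 and 7.92 FPKM with Monosiga Yap-TBD, and Yki S168A lay between (limma adjusted p = 0.348).

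The known targets vn and fj were lower in Yki S168A, and both stood higher in Monosiga Yap-TBD than in Trichoplax Yap S81A. The EGF ligand gene vn was at 5.26, 5.06 and 10.3 FPKM with Trichoplax Yap S81A and 19.4, 19.4 and 16.5 FPKM with Monosiga Yap-TBD, all above the 4.62 ± 0.244 FPKM of Yki S168A (SD, n = 3; log2 difference -1.11, SE 0.19, limma adjusted p = 0.00552). The gene fj, not called against the control, was at 45.4, 44.5 and 53.4 and 85.2, 72.4 and 82.5 FPKM in these groups, again above every Yki S168A library (log2 difference -0.80, SE 0.10, limma adjusted p = 0.000617). Opposite to these, Dll was higher in Yki S168A, with 2.64, 3.01 and 7.46 FPKM in Trichoplax Yap S81A and 0.323, 0.602 and 0.564 FPKM in Monosiga Yap-TBD (log2 difference 1.64, SE 0.26, limma adjusted p = 0.00293). Here 1 Trichoplax library reached into the range of the Yki S168A libraries.

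Genes higher in Yki S168A included a glial gene, photoreceptor genes and an elongation factor gene, while the rhodopsin gene Rh5, given below, was lower. Gene lists were not counted in this comparison. The secreted glial glycoprotein gene ana was at 1.33, 1.23 and 1.17 and 0.458, 0.748 and 0.591 FPKM in the other groups and at 13.9, 21.4 and 15.1 FPKM with Yki S168A (log2 difference 3.21, SE 0.20, limma adjusted p = 6.21e-07). The photoreceptor gene chp was at 11.1, 12.2 and 17.1 and 3.44, 2.59 and 3.89 FPKM in the other groups, and inaC at 9.27, 10.3 and 12.3 and 4.4, 4.02 and 3.56 FPKM, below every Yki S168A library (limma adjusted p = 8.32e-05 and 0.00028). The elongation factor gene Ef1alpha100E, the form used in late larval and adult tissue, was at 26.6 and 21.7 FPKM against 53.6 FPKM (limma adjusted p = 0.000393). For these genes the Yki S168A level lay between the control and the other constructs. The receptor gene mthl8, in contrast, was at or near 0 in all 6 libraries of the other constructs (limma adjusted p = 1.23e-07). It entered this test, too, only through the Yki S168A libraries where it was high.

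The genes lower in Yki S168A include some that the other constructs carried at high level. The neuropeptide gene Ast-C (allatostatin C) was at 178, 97.8 and 255 FPKM with Trichoplax Yap S81A and at 12.6, 8.85 and 11.4 FPKM with Monosiga Yap-TBD, but at 1.87, 0.725 and 1.51 FPKM with Yki S168A (limma adjusted p = 1.51e-06). The cuticle protein gene Cpr97Eb was at 34.3, 33.3 and 94.2 and 285, 248 and 277 FPKM in the other groups and at 2.6, 3.85 and 2.04 FPKM with Yki S168A (limma adjusted p = 4.29e-07). The vesicle priming gene unc-13-4A was at 7.83 and 2.98 FPKM against 0.268 FPKM, and the rhodopsin gene Rh5 at 14.6 and 6.73 FPKM against 2.49 FPKM (limma adjusted p = 2.68e-06 and 0.000179). Osi9, which fell against the control, was also below both other groups, at 7.5, 9.39 and 14.8 and 3.24, 4.93 and 3.26 FPKM (limma adjusted p = 8.55e-05).

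**Figure D5:**
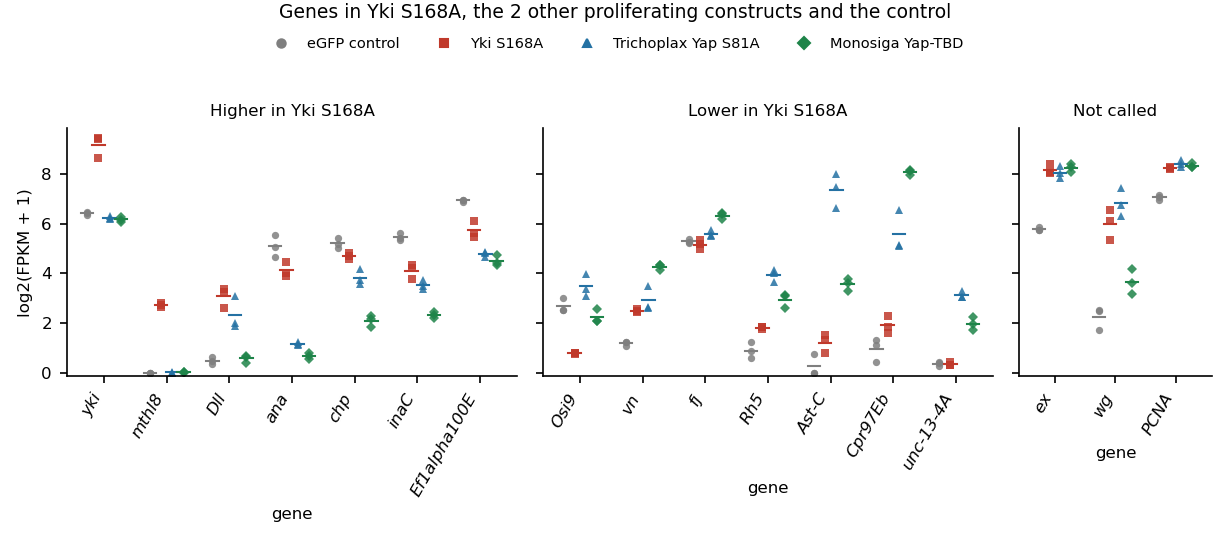
Levels on the log2(FPKM + 1) scale in the 3 libraries of each of 4 groups, with circles for the eGFP control, squares for Yki S168A, triangles for Trichoplax Yap S81A, diamonds for Monosiga Yap-TBD and a line at each group mean. The mthl8 gene lies at or near 0 in the other groups, Ast-C and Cpr97Eb lie above Yki S168A in every library of both other constructs, and the ex values of the 3 constructs overlap.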

How the data were processed

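RNA sequencing values of 15 libraries were used, 3 for each of 5 genotypes. Per the submitters' processing notes, the tools were TopHat 1.0.14, Cuffdiff 1.0.2, CASAVA 1.7.0 and Cufflinks without a version, on build dm3. The annotation, the filters and the use of strand are not given in the sources used here. The FPKM values of 14671 genes were deposited by the authors, who scaled them to transcript length and library size. A second deposited table holds the authors' natural log ratio (ln) of construct to control, which they capped at a size of 6. The p-value deposited beside each ratio is the authors' own and was not used in any test here. The adjusted values deposited with it exceed 1 in 1773 cells and were treated as a score of the authors. The mean level on the log2 scale that the authors deposited was not used.

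From the deposited values, log2(FPKM + 1) was computed here for the 9213 genes that reached 1 FPKM in 3 or more libraries. All 5 groups entered one limma fit (version 3.58.1, R 4.3.3) with trended, robust empirical Bayes, 10 residual degrees of freedom and 3.75 prior ones in the median. The contrasts were Yki S168A minus control and Yki S168A minus the mean of Trichoplax Yap S81A and Monosiga Yap-TBD. They were tested on both sides, with Benjamini-Hochberg adjustment over all genes and a threshold of 0.05. The median SE of a log2 fold change was 0.19. With 3 libraries against 3, an exact permutation test of a single value could not go below 0.1, so none was used. The code was checked on simulated data. Depth was estimated from the steps between low FPKM values, with the absolute scale from 929 genes and a length correction of 229 bases. Python 3.11.15 with pandas 2.3.3, numpy 2.4.6, scipy 1.17.1 and matplotlib 3.10.9 served the rest. The deposited table named 13514 genes, a table of gene names 920 others, and 237 stayed unnamed.

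The members and the 39 gene lists (739 of 746 entries matched) were chosen with earlier results of these data known. Lists are described by counts and medians, without a set test. Named genes were 30 fixed genes, the 15 largest rises and falls among called genes without overlap between groups and with a mean of at least 5 FPKM, up to 5 called members per list and direction, and 8 genes per direction of the second contrast. Genes with only a CG or CR number were left out of the ranked parts of the rule. The alternatives tried were other pseudocounts, filters, scalings, variance models, library weights by 2 estimators, a replicate block and single libraries left out. No batch is given in the labels. Coordinates, strands and overlaps of genes are those of the deposited annotation. Motifs in promoters were planned but not analysed here.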

Additional observations from a re-analysis of the deposited data

How the results depend on the processing

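Against the control, array weights raised the called genes from 1100 to 3033 (1542 higher and 1491 lower), and against the other constructs from 196 to 2612 (1216 higher and 1396 lower). The estimate of these weights stopped before it converged, and it weighted Yki S168A replicate 2 at 6.51 and replicates 1 and 3 at 0.502 and 0.589. Gene by gene weights, an alternative chosen after seeing the data and estimated without a warning, gave 2214 calls (1095 higher and 1119 lower) and 1099 (541 higher and 558 lower), with 3.19, 0.59 and 0.695 for replicates 2, 1 and 3. Why weights raise the counts was not tested. Leaving out single libraries gave 723 to 831 calls against the control, 312 to 373 higher and 411 to 458 lower, and 81 to 176 calls against the other constructs, 27 to 83 higher and 54 to 101 lower, with fewer samples in each fit. With pseudocounts of 0.1 and 5, other filters, only the compared groups, median-ratio or quantile scaling and plain empirical Bayes, the counts were 998 to 1278 and 164 to 197. Same-numbered libraries of Yki S168A and control did not deviate together (correlations of -0.21, -0.011 and -0.13), which gave no sign that the numbers pair them. With so few libraries these values cannot exclude a pairing. A replicate block gave 1002 calls (467 higher and 535 lower) and 160 (64 higher and 96 lower). Of 173 single-gene results, 119 kept direction and call in every alternative run for them (14 to 20 each), 0 reversed, and the others gave 223 lost and 18 gained calls in single settings. The median log2 fold change of all genes was -0.024 after median-ratio and 0.0096 after quantile scaling. The planned promoter motif share and its stricter motif were not run. With 3 libraries per group, small changes and genes near 1 FPKM are measured weakly, and a gene that was not called may still differ.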

Other observations

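Some genes differed between libraries of one group more than between the groups. The ecdysone-induced gene ImpE2 was at 4907, 3429 and 1824 FPKM in control replicates 1, 2 and 3 and at 1475, 2671 and 2814 FPKM in Yki S168A replicates 1, 2 and 3, and the nuclear receptor gene Hr46, an early response gene of the same hormone, at 41.5, 28.2 and 4.54 and 4.19, 34.9 and 32.3 FPKM. In both genes control replicate 3 and Yki S168A replicate 1 were the lowest of their groups. The summed level of 23 ecdysone response genes was 2915 to 6529 FPKM in the controls and 2617 to 4397 FPKM with Yki S168A. Of the 22 that were tested, 2 were called higher by limma. That count was 1 without control replicate 2 and 0 without any other 1 of the 6 libraries. The late photoreceptor genes Rh6 and Arr1 were high in 1 library of each group, at 16.6, 0.348 and 0.447 and 0.282, 0.103 and 11 FPKM for Rh6 and at 14.6, 1.47 and 1.03 and 0.576, 0.422 and 11.9 FPKM for Arr1.

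By chromosome, limma called 0 genes higher and 10 lower of the 74 tested on chromosome 4 (13.5% lower), which include sv. On 2L, 2R, 3L, 3R and X, 5.53% to 7.11% of the tested genes were called lower and 4.03% to 6.85% higher. Whether chromosome 4 differs from the others was not tested.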
